A study of Arabidopsis thaliana with 12 samples.

Results

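The comparison described here set root tips of the Arabidopsis thaliana triple mutant ibr1ibr3ibr10 against those of the wild type Col-0 when no indole-3-butyric acid (IBA) had been added. It rests on 6 of the 12 microarrays of the series, 3 per genotype, chosen by the labels alone: the ibr1ibr3ibr10 arrays on DMSO and the Col-0 arrays on DMSO. Seedlings of both genotypes were harvested 3 days after germination, after 6 h on medium with DMSO, the solvent in which IBA is given. The other 6 arrays hold the same genotypes after 6 h on 10 µM IBA and were used only to look again at genes found on DMSO. Each array was hybridised with RNA from at least 120 pooled root tips of about 4 mm, and the labels call the 3 replicates of a group independent. A replicate is thus a pool of root tips and not a single seedling.

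IBA is a storage and transport form of auxin. In peroxisomes its side chain is shortened by a cycle resembling fatty acid β-oxidation, which yields indole-3-acetic acid (IAA), the main active auxin, and IBR1, IBR3 and IBR10 encode enzymes that act in this conversion. In roots, auxin made from IBA is known for its part in root hair growth and in lateral root formation, and mutants of these genes resist the inhibition of root elongation by IBA. Seedlings are reported to hold some IBA of their own. IBR1, IBR3 and IBR10 themselves have no probe set that names one of them here, and their transcripts were not analysed here.

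The values are log2 expression levels, so a difference of 1 is a doubling. Of 22746 non-control probe sets, 13513 name 1 gene and stand for 13356 genes, which are the genes described below. Levels on the DMSO arrays ran from 1.443 to 13.44. Replicates of 1 genotype correlated at r = 0.997 to 0.998 over probe sets and arrays of different genotypes at 0.993 to 0.996, where probe sets are no independent replicates, and 0 pairs of arrays were identical. Array number limits the precision: the median standard error of a difference was 0.10. A gene is called below when its adjusted p was under 0.05 in limma with Benjamini-Hochberg adjustment over all non-control probe sets. A mean under 3.24, the level that 30% of probe set means do not reach, is called dim, as it is not shown to exceed background. The 6 measured root hair and epidermis genes averaged 6.82 to 6.95 on single Col-0 arrays and 6.61 to 6.79 on mutant arrays, the 5 measured mitosis genes 6.18 to 6.30 and 6.15 to 6.23. The 10 measured genes of green shoot tissue averaged 3.97 to 4.08 and 4.06 to 4.20, with PRK and SBPASE, both of the Calvin cycle, dim in both. The 3 measured xylem genes averaged 6.43 to 6.60 and 6.89 to 7.29, where AT5G64120 differed by 1.36 and the median difference was 0.18. Single-array averages did not overlap between genotypes for xylem and stem cell niche genes, higher in the mutant. The same held for root hair and epidermis and lateral root founding genes, lower in the mutant. Of all single genes, 20.7% showed such separation. Tissue shares were not tested.

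Loss of the 3 enzymes went with a small set of transcript changes that leaned towards higher levels in the mutant. On DMSO 272 of 13356 genes differed (2.04%), of which 194 were higher in the mutant (1.45%) and 78 were lower (0.584%). Over all probe sets the counts were 413 higher (1.82%) and 137 lower (0.602%), so 75.1% of the calls were rises. That share was 64.2% with arrays centred on their medians, and 55.1%, from 114 higher and 93 lower, when arrays were scaled to 24 poly-A spike control probe sets. The spike scaling moved the median difference of all probe sets from -0.02 to -0.15, and with it 95 of the 272 genes were called, among them the 20 largest rises and the 20 largest falls. The spikes averaged 4.76 to 4.91 on single Col-0 arrays and 4.81 to 5.02 on mutant arrays. Most called differences were modest: the median was 0.59 among genes that rose and -0.56 among genes that fell, beside -0.02 over all genes, and at least 1 log2 unit separated the genotypes in 26 of the higher and 4 of the lower genes. In all 272 called genes the single arrays of both genotypes did not overlap, which also held for 20.7% of all genes. As these are pools of tissue, fewer cells of a type and less RNA per cell cannot be told apart in any value below.

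**Figure D1:**
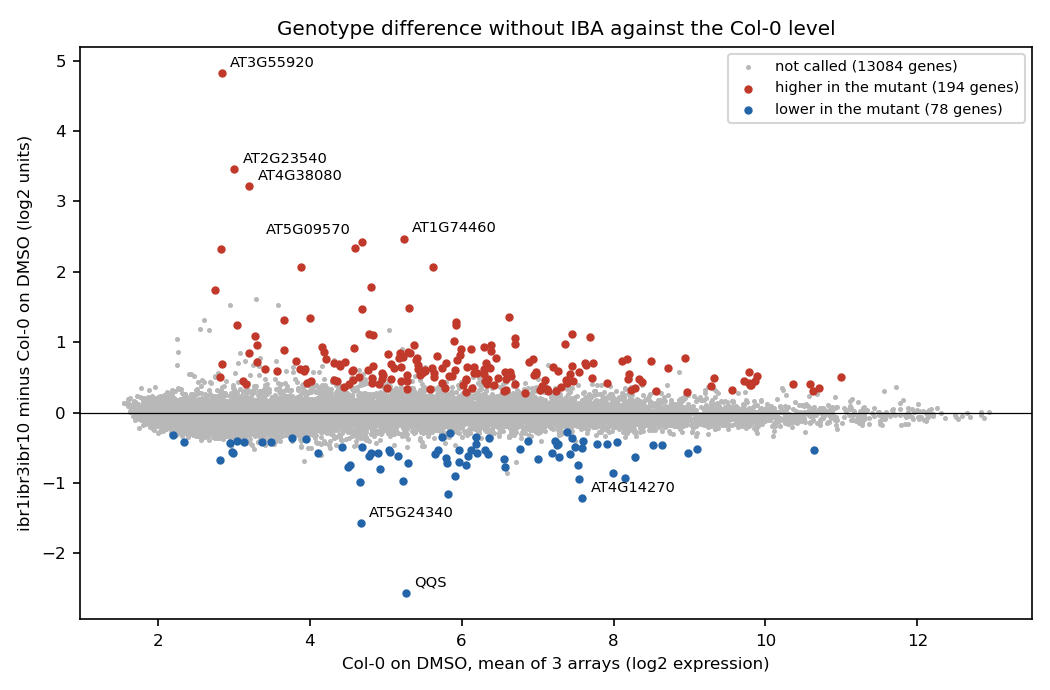
Each point is 1 of 13356 genes, with its mean log2 level on the 3 Col-0 DMSO arrays on the x axis and the mutant minus Col-0 difference in log2 units on the y axis; red points are the 194 genes called higher, blue points the 78 called lower and grey points the 13084 genes not called. The rises of AT3G55920, AT2G23540 and AT4G38080 start from dim Col-0 levels, and QQS lies lowest at -2.56.

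The largest rise was that of AT3G55920, on chromosome 3, a locus without a RefSeq name. It read 2.64, 2.90 and 2.98 on the Col-0 arrays and 7.67, 7.62 and 7.71 on the mutant arrays, a difference of 4.83 (SE 0.09, limma adjusted p = 4.33e-13) or at least 4.42 with the dim Col-0 mean raised to 3.24. The mutant arrays lay close together and far above every Col-0 array. On the IBA arrays, which had no part in choosing it, the difference was 5.02 (limma adjusted p = 2.55e-13), or at least 4.43 with the Col-0 mean raised. As Col-0 was dim on both media, both differences are bounds, and their sizes cannot be compared.

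Genes of the GDSL lipase family, whose enzymes cleave ester bonds in lipids, made up 3 of the 8 largest rises. The match by RefSeq name found 0 measured genes of this family, so the share of it that was called is not known. AT2G23540 read 3.85, 2.50 and 2.67 in Col-0 and 7.56, 6.16 and 5.68 in the mutant (3.46, SE 0.60, limma adjusted p = 0.00617, and at least 3.22 with the dim mean raised). AT1G74460 read 5.74, 5.00 and 4.97 against 8.36, 7.66 and 7.11 (2.47, SE 0.30, limma adjusted p = 5.96e-04). AT3G50400 read 4.30, 3.55 and 3.81 against 6.68, 5.81 and 5.39 (2.07, SE 0.30, limma adjusted p = 0.002). In all 3 genes replicate 1 was the highest array of each genotype, and the lowest mutant array still exceeded the highest Col-0 array. On IBA none of them differed by genotype in the test: AT2G23540 averaged 6.88 in Col-0 and 7.16 in the mutant, AT1G74460 9.68 and 9.0, and AT3G50400 7.80 and 7.52. With eBayes set to trend and robust, the DMSO call of AT2G23540 ended (limma adjusted p = 0.0509).

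Peroxidases, which can use hydrogen peroxide to cross-link cell wall polymers, gave further large rises. The peroxidase family gene AT1G68850 read 3.12, 2.96 and 2.41 in Col-0 and 6.01, 5.07 and 4.38 in the mutant, a rise of 2.32 (SE 0.37, limma adjusted p = 0.00326) or at least 1.91 with the dim mean raised. AT5G64120, which encodes peroxidase 71, read 6.91, 6.44 and 6.52 against 8.59, 7.57 and 7.81 and rose by 1.36 (SE 0.22, limma adjusted p = 0.00388). The groups did not overlap in either gene, and replicate 1 was again the highest array of each genotype. AT5G64120 is also on the list of xylem genes, where it was the 1 called of 3 measured, with a median of 0.18, and the part of xylem tissue in its rise was not tested. Of 6 measured genes that RefSeq names as class III peroxidases, AT5G64120 was the 1 that rose and 0 fell, with a median difference of 0.33. Peroxidase genes that RefSeq leaves unnamed, such as AT1G68850, are outside this count, so it does not describe the whole family. Called falls as well as rises may lie outside it. PRX52, at 1.04 (SE 0.30, limma adjusted p = 0.096), did not pass. LAC16, a laccase and so also an oxidase of the wall, rose by 0.70 (SE 0.11, limma adjusted p = 0.00406), but its mean was 2.85 in Col-0, which is dim, and 3.54 in the mutant. With the dim mean raised the difference was at least 0.30, and its call ended with spike scaling (adjusted p = 0.164).

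AT4G38080 and AT5G12420, which RefSeq leaves unnamed, belonged with the largest rises as well. AT4G38080 read 4.03, 2.82 and 2.76 in Col-0 and 7.30, 6.22 and 5.76 in the mutant (3.22, SE 0.41, limma adjusted p = 8.47e-04, and at least 3.18 with the dim mean raised). AT5G12420 read 5.00, 4.40 and 4.38 against 7.30, 6.82 and 6.67 (2.34, SE 0.21, limma adjusted p = 7.59e-05). Both showed the pattern of the lipase genes, with replicate 1 highest in each genotype and no overlap between genotypes. The other unnamed loci among the 20 largest rises spanned 2.06 to 1.12: AT4G36430 (2.06), AT4G23670 (1.78), AT2G35380 (1.74), AT4G36610 (1.48), AT5G13900 (1.48), AT5G14130 (1.31), AT4G33420 (1.29), AT4G26790 (1.25), AT1G56320 (1.25) and AT2G21640 (1.12). No family was assigned to these loci, so members of the families above may be among them. The Col-0 means of AT2G35380 and AT4G26790 were dim, and with them raised the differences were at least 1.26 and 1.05. Leaving out 1 array ended those of AT2G35380 and AT4G26790, for Col-0 replicates 1, 2 and 3 and mutant replicates 1 and 2 (adjusted p 0.0711 to 0.192 and 0.0526 to 0.0956), and that of AT4G23670, for every array but Col-0 replicate 1 (0.0542 to 0.136).

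A shared feature of these rises was their spread over replicates. Of the 20 largest rises, 18 were highest on mutant replicate 1 and 15 on Col-0 replicate 1, with 15 highest on both. Among all genes 30.5% were highest on mutant replicate 1 and 30.7% on Col-0 replicate 1. AT5G09570 and AT3G55920 did not share this: both had their lowest Col-0 value on replicate 1. With both replicate 1 arrays left out, an alternative added after the data were seen, 18 of the 20 largest rises and 13 of the 20 largest falls were called, but the genes called higher numbered 81 rather than 194. Of those 194 genes, 131 were highest on mutant replicate 1 and 120 on Col-0 replicate 1, so the pattern was not limited to the largest rises. The share of all genes highest on replicate 1 in both genotypes was not counted. The cause of the pattern was not tested.

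**Figure D2:**
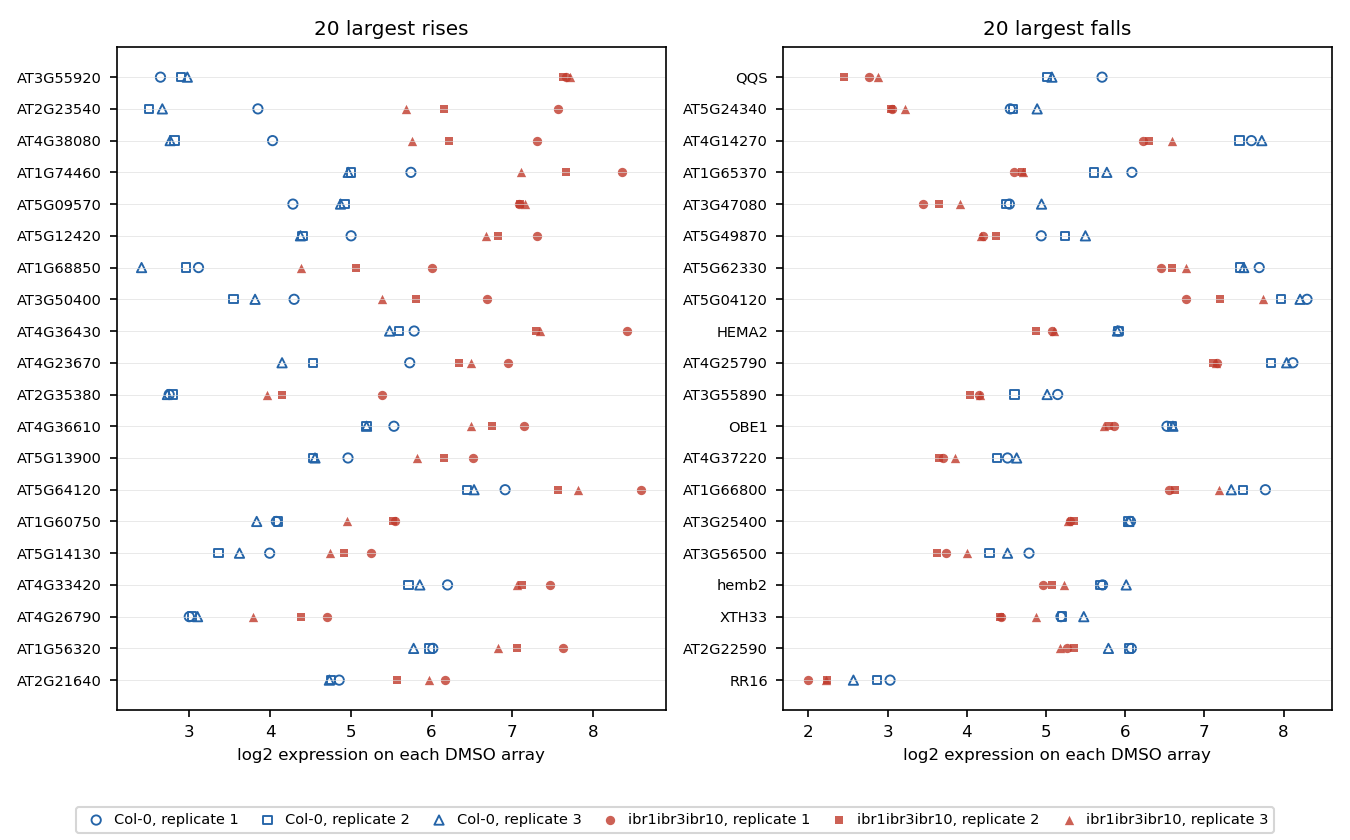
The log2 level on each of the 6 DMSO arrays is shown for the 20 largest rises (left) and the 20 largest falls (right), with open blue symbols for Col-0, filled red symbols for the mutant, and circles, squares and triangles for replicates 1, 2 and 3. In every gene the red and blue symbols are separate, and for 15 of the 20 rises the circle is the rightmost symbol of both genotypes.

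Mitochondrial stress genes, whose products are made when respiration is disturbed, held 1 of the sharpest rises. AT5G09570 read 4.28, 4.92 and 4.87 in Col-0 and 7.08, 7.09 and 7.16 in the mutant, a rise of 2.42 (SE 0.16, limma adjusted p = 1.9e-06). NDB4, an NAD(P)H dehydrogenase of the mitochondrial inner membrane that bypasses respiratory complex I, rose from 4.16 ± 0.20 to 5.09 ± 0.11 (log2, mean ± SD, n = 3), by 0.93 (SE 0.12, limma adjusted p = 6.73e-04). The mutant arrays of AT5G09570 lay close together, and no array overlapped between genotypes in either gene. On IBA both genes were again higher in the mutant, AT5G09570 by 1.94 (limma adjusted p = 1.34e-06) and NDB4 by 0.56 (limma adjusted p = 0.00494). Of 7 measured genes of the list 2 were called higher and 0 lower, where 1.45% of all genes rose, with a median of 0.15, and 2 were called without each single array and with each scaling. The related NDB1, NDB2, NDB3 and NDC1 lay between -0.08 and 0.15, and FDH, formate dehydrogenase, was at 0.41 (SE 0.15, limma adjusted p = 0.216).

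Genes of xenobiotic detoxification, whose enzymes modify foreign or reactive small molecules and attach sugars or glutathione to them, included several that rose. Of 12 measured members (51 listed) 6 rose and 0 fell, where 1.45% of all genes rose, and the median was 0.35 against -0.02 over all genes. AT1G60750 led with 4.08, 4.10 and 3.84 in Col-0 and 5.55, 5.53 and 4.95 in the mutant (1.34, SE 0.15, limma adjusted p = 4.23e-04). The glycosyltransferase genes UGT73B1 and UGT73B4 rose by 0.61 (SE 0.10) and 0.54 (SE 0.09), AT1G60730 by 0.60 (SE 0.13), and the tau glutathione S-transferase genes GSTU22 and GSTU25 by 0.46 (SE 0.09) and 0.40 (SE 0.07). These GSTU transcripts were abundant, GSTU25 going from 10.59 ± 0.04 to 10.99 ± 0.07 (log2, mean ± SD, n = 3). Other relatives were not called: GSTU20, GSTU26 and GSTU28 were at -0.26, -0.21 and -0.33. The count fell from 6 to 1, AT1G60750, both with spike scaling and without the replicate 1 arrays, and it was 4 to 6 without single arrays, with 4 when mutant replicate 1 or 2 was left out.

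Smaller shares of the wider enzyme families were called. Of 43 measured genes matched by name as UDP-glycosyltransferases 4 rose and 0 fell, where 1.45% of all genes rose, with a median of 0.00. Beside UGT73B1 and UGT73B4 these were UGT87A2 (0.58, SE 0.10) and UGT76C2 (0.54, SE 0.11). Genes under other names or without a name, such as IAGLU below, are outside both counts, and called falls as well as rises may be among them. UGT76C2, whose product puts glucose on cytokinins, lost its call without Col-0 replicates 1 and 2 and without each mutant array (adjusted p 0.0526 to 0.0888). Of 13 glutathione S-transferase genes 3 rose and 0 fell, beside the same 1.45%, GSTU16 (0.40, SE 0.09) being the third, with a median of 0.02. GSTU16 lost its call without Col-0 replicates 1 or 3 or mutant replicates 1 or 2 (adjusted p 0.0778 to 0.143), and with spike scaling 0 genes of either family passed. ATGSTF13, which the list does not hold and which was picked after its value was seen, fell by 0.44 on the log2 scale (SE 0.09, limma adjusted p = 0.0174), a call that ended without replicate 1 of either genotype (0.0693 to 0.0991). None of 24 measured cytochrome P450 genes was called, where 2.04% of all genes were.

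Of 10 measured autophagy genes (21 listed), which build the vesicles that carry cell contents to the vacuole, 2 rose and 0 fell, where 1.45% of all genes rose. ATG8F rose from 7.55 ± 0.12 to 8.12 ± 0.04 (0.57, SE 0.10, limma adjusted p = 0.00548) and ATG8H from 8.19 ± 0.18 to 8.66 ± 0.07 (0.48, SE 0.09, limma adjusted p = 0.00878; log2, mean ± SD, n = 3). Both encode ubiquitin-like proteins that are coupled to the vesicle membrane. Apart from ATG3, the measured members all carry ATG8 or APG8 names, so they do not describe the autophagy genes as a whole. All 10 measured members had a positive difference, from 0.04 for ATG8C to 0.57, with a median of 0.29, where 42.4% of all genes were positive, but only these 2 passed. On IBA ATG8F was at -0.03 and ATG8H at 0.21, neither called. With spike scaling 0 of the 10 passed and the median was 0.16. That scaling shifts all differences alike, by more than the 0.04 of ATG8C, so not all 10 stayed positive. Without mutant replicate 1 the call of ATG8H ended (limma adjusted p = 0.0563).

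**Figure D3:**
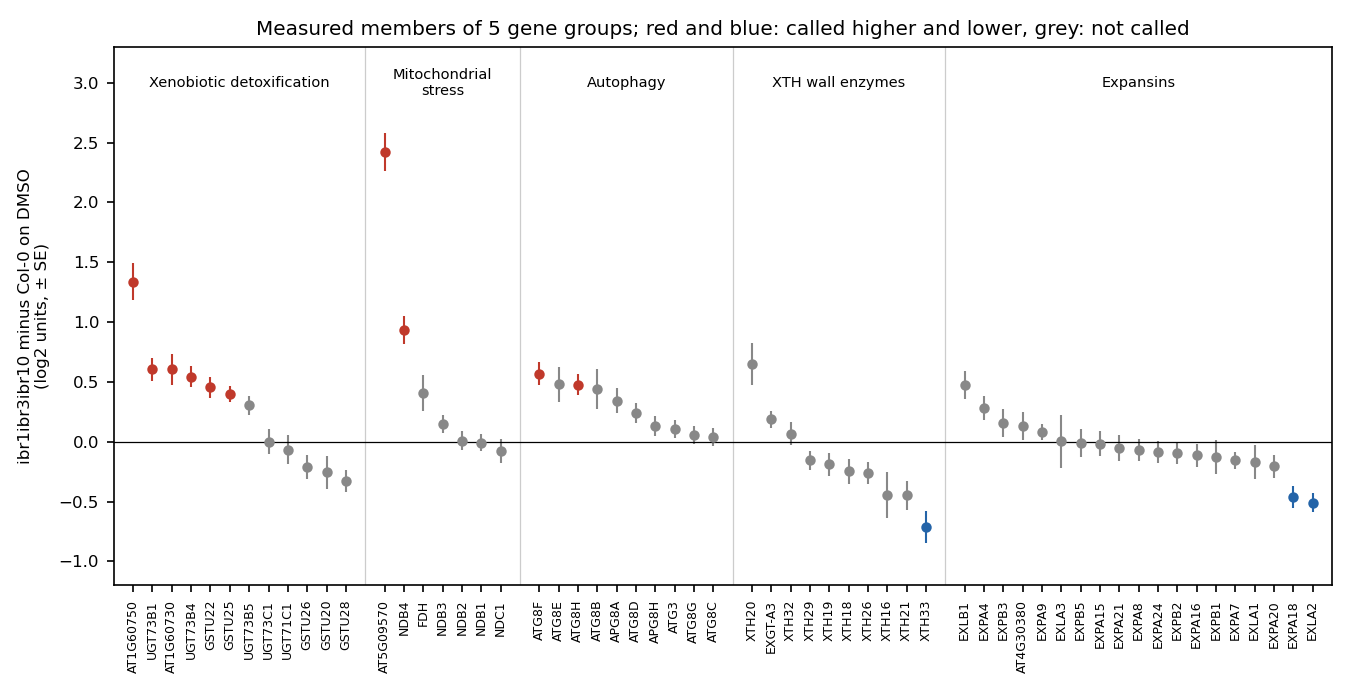
Points are the mutant minus Col-0 differences on DMSO in log2 units, with standard errors as bars, for the measured members of 5 gene groups; red marks genes called higher, blue genes called lower and grey genes not called. All 10 autophagy genes lie above 0, AT5G09570 stands at 2.42 above the other mitochondrial stress genes, and the called wall-loosening genes EXPA18, EXLA2 and XTH33 lie below 0.

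Few auxin genes were measured, and few of those were called on DMSO. None of 7 measured Aux/IAA repressor genes (32 listed) and 4 auxin biosynthesis genes (29 listed) was called. The same held for 3 auxin transport genes (39 listed) and 6 genes of lateral root founding (40 listed). The medians were, in this order, -0.09, -0.10, -0.17 and -0.12. Of all genes 2.04% were called, so counts of 0 in groups this small are near that share. Of 80 listed SAUR genes 0 were measured. LBD16, which acts at the start of lateral root formation, was at 4.22 ± 0.03 and 4.13 ± 0.10, and PUCHI at 3.39 ± 0.22 and 3.04 ± 0.14 (log2, mean ± SD, n = 3). Among 11 measured genes of auxin inactivation 1 was higher, AT1G14130 (DAO1), which encodes an enzyme that oxidises IAA: it rose by 0.53 (SE 0.12, limma adjusted p = 0.0261). Its neighbour AT1G14120 (DAO2) read higher by 1.61 but with an SE of 0.40 (limma adjusted p = 0.0537). AT1G14120 passed under 7 of 17 alternatives, over which its limma adjusted p ranged from 4.21e-05, with spike scaling, to 0.219. AT1G14130 did not pass with spike scaling (limma adjusted p = 0.474), and it also lost its call without any 1 array other than Col-0 replicate 1 (0.0623 to 0.113). The GH3 genes of IAA conjugation showed no called difference, with GH3.3 at 0.16, GH3.17 at 0.03, WES1 (GH3.5) at -0.05 and GH3.1 at -0.32. IAGLU, named in RefSeq for an enzyme that joins glucose to IAA and picked after its value was seen, rose by 0.60 (SE 0.08, limma adjusted p = 0.00175), a call that ended with spike scaling (0.265).

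Measured peroxisomal genes outside the mutated loci also showed no call, where 2.04% of all genes were called. Of 52 listed genes 5 were measured, and their differences lay between -0.03 for PEX4, which recycles the import receptor of peroxisomal proteins, and 0.75 for ICL, isocitrate lyase of the glyoxylate cycle. ICL read 4.32 ± 0.32 and 5.06 ± 0.43 (log2, mean ± SD, n = 3; limma adjusted p = 0.0662). It passed under 4 of the alternatives tried, over which its limma adjusted p ranged from 0.0123 to 0.424. AIM1, a multifunctional enzyme of β-oxidation, was at 0.17 (SE 0.08), and SDRB and OPCL1 at 0.06 and 0.07.

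Other lists and families with calls, matched by name, held 1 each, where 1.45% of all genes rose. Among 5 measured genes of abscisic acid and water stress LTI30, a dehydrin, rose by 0.77 (SE 0.09, limma adjusted p = 4.46e-04) from 8.94 ± 0.07 to 9.71 ± 0.08. Of 5 jacalin lectin genes JAL33 rose by 0.98 (SE 0.18, limma adjusted p = 0.00839), and of 16 matched sugar transporter genes SWEET2 by 0.56 (SE 0.13, limma adjusted p = 0.0332). SFP1, a sugar transporter gene outside that match and picked after its value was seen, also rose, by 0.85 (limma adjusted p = 0.00488). RCA, Rubisco activase, rose by 0.63 (SE 0.11, limma adjusted p = 0.00557) and was the 1 called gene of 10 for green shoot tissue, a list whose single-array averages are given above. JAL33 lost its call without Col-0 replicate 3 or mutant replicate 1 (adjusted p 0.0519 and 0.0502), SWEET2 without any 1 array other than mutant replicate 3 (0.0784 to 0.169), and LTI30 and RCA with spike scaling (0.0551 and 0.265). Picked after their values were seen, LCR69 of the low-molecular-weight cysteine-rich family rose by 1.11 (SE 0.14), the flavin monooxygenase gene FMO by 0.86 (SE 0.12), ATC by 0.81 (SE 0.11) and the metallothionein gene MT1C by 0.50 (SE 0.08), the last not called with spike scaling (adjusted p = 0.5).

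The measured members of the division and meristem lists showed no called difference. None of 5 mitosis genes (50 listed), 3 genes of G1 and S phase (50 listed) and 5 stem cell niche genes (30 listed) passed. Neither did any of 5 histone genes (20 listed) and 11 kinesin and microtubule genes (68 listed). The medians were, in this order, -0.09, -0.08, 0.11, 0.04 and -0.01. Of 62 listed cyclin and CDK genes 0 were measured. The aurora kinase genes AUR1 and AUR2 read 7.50 ± 0.08 and 6.75 ± 0.02 in Col-0 and 7.41 ± 0.03 and 6.74 ± 0.04 in the mutant (log2, mean ± SD, n = 3). In larger families the counts were also 0, for 22 bZIP transcription factors, 23 genes of wall acetylation and 38 of F-box proteins and ubiquitin ligases. Of all genes 2.04% were called, so counts of 0 in groups of these sizes are near that share and say little about the members.

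Fewer genes fell, and the steepest fall was that of QQS, an orphan gene known to affect the split of carbon and nitrogen between starch and protein. QQS read 5.71, 5.01 and 5.07 in Col-0 and 2.77, 2.45 and 2.88 in the mutant, a fall of 2.56 on the log2 scale (SE 0.17, limma adjusted p = 1.9e-06), or of at least 2.02 with the dim mutant mean raised. Next came loci without RefSeq names. AT5G24340 read 4.55, 4.58 and 4.89 against 3.05, 3.04 and 3.22 (-1.57, SE 0.11, limma adjusted p = 3.98e-06), or a fall of at least 1.43 with the dim mutant mean raised. AT4G14270 read 7.59, 7.45 and 7.73 against 6.23, 6.31 and 6.59 (-1.22, SE 0.11, limma adjusted p = 4.32e-05), and AT1G65370 6.09, 5.61 and 5.77 against 4.59, 4.69 and 4.71 (-1.16, SE 0.14, limma adjusted p = 5.75e-04). Every mutant array of these 4 genes lay below every Col-0 array. On IBA they were lower again, by -2.07, -1.49, -1.29 and -1.43, and each was called. The mutant means of QQS and AT5G24340 were dim on IBA as well.

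Both genes of tetrapyrrole synthesis among the 20 largest falls act early in the route to haem and chlorophyll. HEMA2, a glutamyl-tRNA reductase, read 5.91, 5.92 and 5.90 in Col-0 and 5.07, 4.88 and 5.10 in the mutant (-0.89, SE 0.11, limma adjusted p = 8.47e-04), and hemb2, of a later step, 5.71, 5.69 and 6.01 against 4.97, 5.08 and 5.23 (-0.71, SE 0.11, limma adjusted p = 0.00305). OBE1, a PHD finger protein needed to set up the root meristem, read 6.53, 6.59 and 6.60 against 5.86, 5.79 and 5.74 (-0.78, SE 0.07, limma adjusted p = 3.68e-05). Replicates of these genes lay close together, and the genotypes did not overlap. All 3 were also lower on IBA, by -0.97, -1.09 and -0.72.

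Among genes of cell wall loosening a few falls were called, where 0.584% of all genes fell. XTH33, a xyloglucan endotransglucosylase/hydrolase that cuts and rejoins wall polysaccharide, read 5.19, 5.20 and 5.48 against 4.43, 4.41 and 4.88 (-0.71, SE 0.13, limma adjusted p = 0.00989), and it was the 1 called of 10 measured XTH genes, whose median was -0.22. Of 19 measured expansin genes 2 fell and 0 rose, with a median of -0.07: EXLA2, an expansin-like gene, by 0.51 (SE 0.08, limma adjusted p = 0.00326) and EXPA18, an expansin of growing root hairs, by 0.46 (SE 0.09, limma adjusted p = 0.0131). EXPA7, the other root hair expansin, was at -0.16 and not called. Not all members leaned down: 6 of the 19 expansin and 3 of the 10 XTH genes had a positive difference. The expansin-like gene EXLB1 was at 0.47 (limma adjusted p = 0.0505) and XTH20 at 0.65 (limma adjusted p = 0.0736), neither called. GH9C3, an endoglucanase, was the 1 of 36 glycosyl hydrolase genes called and fell by 0.53 (SE 0.10, limma adjusted p = 0.0132). Several of these calls ended when any 1 of several arrays was left out, with fewer arrays by construction. XTH33 lost its call without Col-0 replicate 3 or mutant replicates 1 or 2 (adjusted p 0.0527 to 0.0607). EXPA18 lost its call without Col-0 replicates 1 or 3 or mutant replicate 2 (0.0505 to 0.0727) and with spike scaling (0.0942). GH9C3 lost its call without Col-0 replicate 3 or mutant replicate 1 (0.0522 and 0.0811).

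RR16, a type-A response regulator that dampens cytokinin signalling, read 3.03, 2.87 and 2.57 in Col-0 and 1.99, 2.24 and 2.22 in the mutant (-0.67, SE 0.13, limma adjusted p = 0.0103). Its means were dim in both genotypes, so the size of the difference cannot be read, and the call ended without mutant replicate 1 (limma adjusted p = 0.0635). ARR15, of the same class, was at -0.38 (SE 0.21) and not called. Of 7 measured WRKY genes 1 fell, where 0.584% of all genes fell. This was WRKY6, by 0.35 (SE 0.07, limma adjusted p = 0.0156), a call lost without Col-0 replicates 2 or 3 or mutant replicates 1 or 3 (adjusted p 0.0585 to 0.0872).

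The remaining falls among the 20 largest were of loci that RefSeq leaves unnamed, from -0.99 for AT3G47080 and -0.98 for AT5G49870 to -0.71 for AT2G22590. Between them lay AT5G62330 (-0.95), AT5G04120 (-0.92), AT4G25790 (-0.86), AT3G55890 (-0.80), AT4G37220 (-0.77), AT1G66800 (-0.74), AT3G25400 (-0.74) and AT3G56500 (-0.74). These loci were assigned to no family, so members of the families described here may be among them. AT1G66800 lost its call without each array but mutant replicate 3 (adjusted p 0.0549 to 0.179), AT3G56500 without Col-0 replicates 1 or 3 or mutant replicates 1 or 2 (0.0898 to 0.117), and AT5G04120 without Col-0 replicate 3 (0.0541).

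Genes that rose and genes that fell on DMSO differed in what the 6 IBA arrays showed for them. Of the 194 higher genes, 43 were also higher in the mutant on IBA, 12 were lower and 139 were not called, where 9.98% of all genes were called on IBA, 5.56% higher and 4.42% lower. Their median difference went from 0.59 on DMSO to 0.15 on IBA, beside 0.00 over all genes. Of the 78 lower genes, 50 were also lower on IBA, 2 were higher and 26 were not called, and their median went from -0.56 to -0.61. The change of the genotype difference between media was tested directly in limma and passed for 77 of the 194 higher genes, 76 of them with the smaller value on IBA, and for 33 of the 78 lower genes, 20 more negative and 13 less negative on IBA, where 5.74% of all genes passed. That test shares the DMSO arrays with the choice of genes and is not independent of it.

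Among the 20 largest rises 4 were called higher on IBA: AT3G55920, AT5G09570, AT4G36430 (1.26) and AT4G33420 (1.07). The others included AT4G38080, at 8.14 in Col-0 and 7.82 in the mutant on IBA, AT1G68850, at 7.0 and 6.57, and AT5G12420, at 8.42 and 8.22. In each of these 3 genes the means of both genotypes on IBA were above the mutant mean on DMSO, and the genotypes no longer differed in the test. Among the 20 largest falls 18 were called lower on IBA. The exceptions were AT5G62330, at -0.20 on IBA, and AT5G04120, which was lower in the mutant on DMSO by -0.92 and higher on IBA by 0.95 (limma adjusted p = 0.00218).

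**Figure D4:**
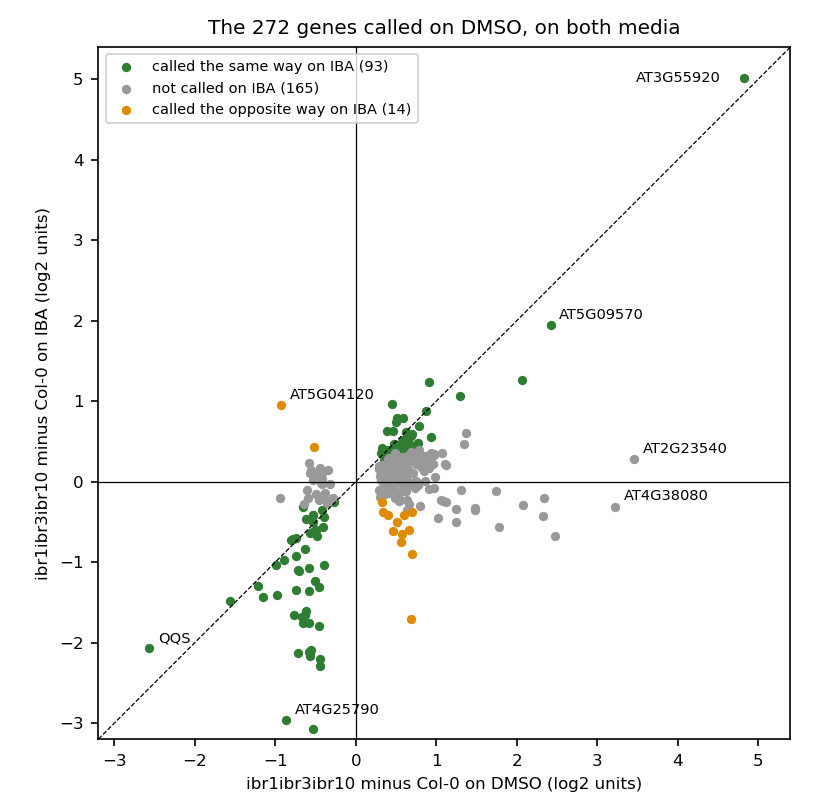
Each point is 1 of the 272 genes called on DMSO, with the mutant minus Col-0 difference in log2 units on DMSO on the x axis and on IBA on the y axis; green, grey and orange mark genes called the same way, not called and called the opposite way on IBA, and the dashed line marks equal differences. AT3G55920 and QQS lie far from 0 on both axes, each with 1 genotype dim on both media, while AT2G23540 and AT4G38080 lie near 0 on the IBA axis.

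Gene order in the TAIR10.1 annotation, the assembly RefSeq uses, was used to look around the mutated loci. Of the 300 measured genes nearest to IBR1, IBR3 and IBR10, 50 on each side of each, 5 were called (1.67%), against 2.04% of all genes. These were AT4G05070 and AT4G07850 near IBR1 on chromosome 4, ATG8H near IBR3 on chromosome 3, and AT4G14020 and AT4G14270 near IBR10 on chromosome 4. Around AT3G55920, 4 of the 100 nearest measured genes were called, among them AT3G55890 and AT3G56500 of the 20 largest falls. Whether linked sequence differences between the lines bear on these values was not tested.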

How the data were processed

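Affymetrix ATH1 arrays were hybridised with labelled RNA amplified from 100 ng of total RNA, per the labels' protocols. The deposited log2 expression levels were made by the authors with affy 1.40.0 by RMA, according to the submitters' processing notes. In RMA, background is removed, all arrays are given 1 distribution of intensities and each probe set is summarised, so a change common to most transcripts would be hidden. Arrays have no read depth.

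DMSO sample titles give 0 h and shorten the mutant to ibr3, whereas their other labels give 6 h and the triple mutant, which were used. Of 22810 probe sets 64 controls were left out; of the other 22746, 503 name several genes and 8730 none. Symbols came from RefSeq (77 identifiers were not in it), and for the 146 genes with more than 1 probe set the one of highest mean over the 12 arrays was used. RefSeq leaves many loci unnamed, and the families given for a few of them are background knowledge.

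limma 3.58.1 (R 4.3.3) fitted means of the 4 groups over all 12 arrays (lmFit, eBayes, 8 residual and 5.62 prior degrees of freedom), with two-sided tests and Benjamini-Hochberg adjustment over the 22746 probe sets. The fit was tested on simulated data: of 22746 probe sets 200 were changed, and it recovered 84% of changes of 0.5 log2 units and 100% of changes of 1, 2 and -1, with 18 false calls. The simulated noise was normal and independent between probe sets and arrays. It held no shared replicate or scaling effect, so these figures do not cover such effects in the real arrays.

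Of 91 gene lists and families, matched by name, 65 had a measured gene, and not all of these are mentioned. Genes named were the 20 largest rises and 20 largest falls among called genes without overlap of single arrays, up to 4 members of smallest p per list, and all called members of lists that lead a paragraph; others are marked as picked later. Members and lists were chosen with earlier results of these data known. Alternatives were a replicate block, the DMSO arrays alone, other scalings, a filter on the dimmest 30%, other variance models, leaving out arrays, stricter thresholds and adjustment over genes alone. Promoter motifs were not analysed here.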

Additional observations from a re-analysis of the deposited data

Results flagged for a closer look

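For 20 of the 40 genes with the largest rises and falls on DMSO, the genotype difference on IBA differed from that on DMSO by limma's test of the difference between media, adjusted over all 22746 probe sets. Values below are the mutant minus Col-0 difference on IBA minus that on DMSO, in log2 units, and a negative value on a riser means a smaller rise, or none, on IBA.

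Among the rises the GDSL lipase genes AT2G23540, AT1G74460 and AT3G50400 gave -3.18 (SE 0.85, limma adjusted p = 0.0394), -3.15 (SE 0.42) and -2.36 (SE 0.43), and the peroxidase gene AT1G68850 gave -2.76 (SE 0.52). AT4G38080 was at -3.53 (SE 0.58, limma adjusted p = 0.00175) and AT5G12420 at -2.54 (SE 0.30). AT4G23670 was at -2.35, AT5G13900 at -1.83, AT4G36610 at -1.81, AT1G56320 at -1.75, AT4G26790 at -1.58 and AT5G14130 at -1.42. AT2G21640 was at -0.92 and the detoxification gene AT1G60750 at -0.87. The Col-0 means of AT2G23540, AT4G38080, AT1G68850 and AT4G26790 on DMSO were dim, and with dim means raised to 3.24 the values of these 4 genes were -2.95, -3.49, -2.34 and -1.39.

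Among the falls AT4G25790 was at -2.10 (SE 0.20, limma adjusted p = 2.08e-05), XTH33 at -1.41 (SE 0.19) and AT4G37220 at -0.89 (SE 0.16), so that the mutant was further below Col-0 on IBA. RR16 was at -1.01 (SE 0.18), a value whose size cannot be read, since both genotypes were dim on DMSO and the mutant also on IBA. The 2 positive values were those of AT5G04120, 1.88 (SE 0.25, limma adjusted p = 3.15e-04), and AT5G62330, 0.74 (SE 0.15). No cause was tested for any of these.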

How the results depend on the processing

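Main counts were 413 probe sets higher and 137 lower, and 194 genes higher and 78 lower. With spike scaling 114 probe sets and 55 genes were higher; with eBayes set to trend and robust 293 genes were higher; with array weights 230 probe sets and 131 genes were lower. At adjusted p under 0.01 the counts were 198, 55, 97 and 31, and with a change of at least 1 log2 unit 66, 13, 26 and 4. Without both replicate 1 arrays on DMSO they were 165, 48, 81 and 29. Leaving out single arrays gave 206 to 363 probe sets higher and 66 to 108 lower, and 97 to 171 genes higher and 35 to 64 lower, with fewer arrays by construction. The lowest counts of higher genes came without mutant replicate 1 (97), Col-0 replicate 3 (109) and Col-0 replicate 2 (114), and those of lower genes without Col-0 replicate 3 (35), mutant replicate 1 (41) and mutant replicate 2 (44). For the other moves the cause was not tested.

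Of the 272 called genes 119 kept the call without each single array, 95 were called with spike scaling and 106 without both replicate 1 arrays, and 0 changed sign in any alternative. Same-numbered arrays of both genotypes deviated from their group means with r = 0.11, 0.05 and 0.05, and differently numbered arrays with r from -0.08 to 0.03. These low values do not settle whether the numbers pair samples. The main fit left the numbers out, and the replicate block was an alternative. With the replicate block 353 probe sets were higher and 119 lower, and 216 of the 272 genes were called. With the block within each medium the counts were 444 and 130, and with the DMSO arrays alone 416 and 145 without the block and 403 and 105 with it. Quantile normalization gave 361 and 153. Signal over background was not measured, so 8 called genes dim in both genotypes and 15 dim in 1 carry no firm level.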

Other observations

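At least 0.5 log2 units separated the genotypes in 127 higher and 49 lower genes. Several with RefSeq names are given here, of which SUFE2, SFP1, TRI, BAT1 and PLIM2b were picked after their values were seen. SUFE2, of plastid iron-sulfur cluster assembly, was higher by 0.64 (SE 0.10, limma adjusted p = 0.00372) on DMSO and by 0.49 on IBA (limma adjusted p = 0.00631). SFP1, a sugar transporter gene, was higher by 0.85 (SE 0.14) and the tropinone reductase gene TRI by 0.62 (SE 0.14). The serine carboxypeptidase-like gene scpl28, the pectin methylesterase gene PMEPCRF and BAT1, whose product acylates brassinosteroids, were higher on DMSO by 0.70 (SE 0.11), 0.55 (SE 0.07) and 0.57 (SE 0.10). On IBA these 3 stood at -0.38, -0.23 and -0.65 (limma adjusted p = 0.0332, 0.0615 and 6.31e-04). With spike scaling the DMSO calls of scpl28, SUFE2, TRI, PMEPCRF, BAT1 and PLIM2b ended (adjusted p = 0.148, 0.257, 0.301, 0.409, 0.423 and 0.2). Without mutant replicate 1 the call of BAT1 on DMSO ended (adjusted p = 0.0538), as did that of TRI without each array but mutant replicate 3 (0.0717 to 0.141). PLIM2b, of actin bundling, was at -0.40 on DMSO (SE 0.09, limma adjusted p = 0.0306) and at -1.04 on IBA; its DMSO call ended without any 1 array but Col-0 replicate 2 (0.0737 to 0.111).

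Of the 550 called probe sets 277 name no single gene, 218 higher and 59 lower in the mutant, and were not described by function. The largest differences among these were 3.24 and 2.82 upwards and -2.59 and -2.08 downwards, the -2.59 being a steeper fall than that of QQS. On IBA these probe sets stood, in the same order, at -0.55, -0.33, -2.55 and -2.13. AT1G31050 was the called gene with a second probe set: 1 read 0.65 (limma adjusted p = 0.00305) and the other 0.36 (0.331).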
